A study of Mus musculus with 4 samples.

Results

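The net state of macrophages given lipopolysaccharide (LPS) together with the caspase inhibitor zVAD was compared with that of untreated macrophages, using the arrays titled LPS/zVAD and Control, which are 2 of the 4 arrays of the study. The cells were macrophages grown for 7 days out of the bone marrow of female BALB/c mice, in medium conditioned by L929 cells, a fibroblast line that secretes macrophage colony stimulating factor. The control cells received no agent, and the LPS/zVAD cells received LPS at 10 ng/ml and zVAD at 50 µM. The remaining arrays are quoted beside the pair: LPS alone (10 ng/ml), and LPS and zVAD at those doses plus Nec-1, or necrostatin-1, at 30 µM, which blocks RIPK1 kinase activity. The sources used here do not give how long the agents were present, how many mice gave marrow or how many cells survived. An array of zVAD without LPS was not analysed here, so the difference joins the action of LPS, the action of zVAD and their combination. Each condition had 1 array, so there is no spread between replicates to set a difference against, no test was run, and 2-fold is a rule of size. Precision is limited by that single array. Each gene is represented by its brightest probe (by the mean of the 4 arrays), and the comparison covers the 12203 of 19938 genes whose highest signal on the 4 arrays reached the median of all values (log2 6.47, called the filter level below). In what follows, a gene's 4 log2 signals stand in a fixed order, which is control first, then LPS alone, then LPS/zVAD, then the array with Nec-1, and a difference is the log2 signal with LPS/zVAD minus that in control. A signal under the filter level was not separated from background, so folds against it are counted from that level and given as at least that size.

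LPS is sensed by the receptor TLR4, which signals through the adaptor MyD88 to NF-kB and MAP kinases and through the adaptor TRIF to the interferon regulatory factors and interferon beta. Interferon beta then acts back on the cell through STAT proteins and switches on the interferon stimulated genes. Caspase-8 holds the kinases RIPK1 and RIPK3 in check; when caspases are blocked, RIPK3 can phosphorylate MLKL, which breaks the plasma membrane in the form of death called necroptosis. Macrophages given LPS and zVAD are a common model of that state.

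The labelled cell type was checked on its markers. All 10 macrophage markers were past the filter level on both arrays. Adgre1, the F4/80 antigen, had signals of 12.50, 13.31, 12.62 and 13.26, and the lysosomal gene Cd68 had 13.30, 13.03, 13.37 and 13.06. Csf1r, the receptor of macrophage colony stimulating factor, had 12.80, 12.14, 11.99 and 12.01, a difference of -0.81. Fcgr1, the high-affinity Fc gamma receptor, was the single marker of the 10 past 2-fold (11.21, 13.38, 12.84 and 13.30). Of the markers of other cell types, Csf3r among 12 neutrophil markers (8.26, 10.89, 9.94 and 10.08), Ccr7 among 8 dendritic cell markers (6.79, 10.67, 10.27 and 10.12) and Kdr among 10 stromal and endothelial markers (7.15, 9.99, 9.30 and 9.44) were higher with LPS/zVAD, and Cd79b among 7 B cell markers was lower (8.82, 8.33, 7.73 and 8.01). After cyclic loess, another scaling of the arrays, 0 B cell markers were lower, and 2 neutrophil and 2 stromal and endothelial markers were higher. None of 9 T and NK cell, 8 mast cell and basophil or 4 erythroid markers was past 2-fold, and most of these lay under the filter level. The median log2 signal of the neutrophil markers was 8.53 on both arrays, and that of the B cell markers was 5.89 in control and 5.65 with LPS/zVAD. In RNA from whole cultures, fewer cells of a type and less RNA per cell cannot be told apart, and the part of other cell types in the differences below was not tested.

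Of the 12203 genes, 1073 (8.79%) were at least 2-fold higher with LPS/zVAD than in control and 1304 (10.7%) were at least 2-fold lower, while 9826 lay between. The median difference was -0.14, and these shares and that median are the background for the gene lists below. The differences were lopsided in size. At least 4-fold apart were 436 genes on the higher side and 111 on the lower side; at least 8-fold, 215 and 9; and at least 16-fold, 109 and 0. The quartiles of all differences were -0.58 and 0.20, and the extremes were 8.22 for the cytokine gene Il6 and -3.88 for Fbxo5, an inhibitor of the anaphase-promoting complex. These counts and extremes use signals as deposited, also where a signal was under the filter level. That held for control in 145 of the higher genes and for LPS/zVAD in 106 of the lower genes. Counted from the filter level, 1040 genes were higher and 1252 lower, and Il6 stood at 6.33, under Cxcl10 at 7.25. Close to the threshold on the higher side lay Ranbp2 and Lancl2, at 1.0001 and 1.0016, with Pkn2 just short of it at 0.9987. On the lower side Rangrf lay just inside at -1.0007 and Dgkz just outside at -0.9999.

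**Figure D1:**
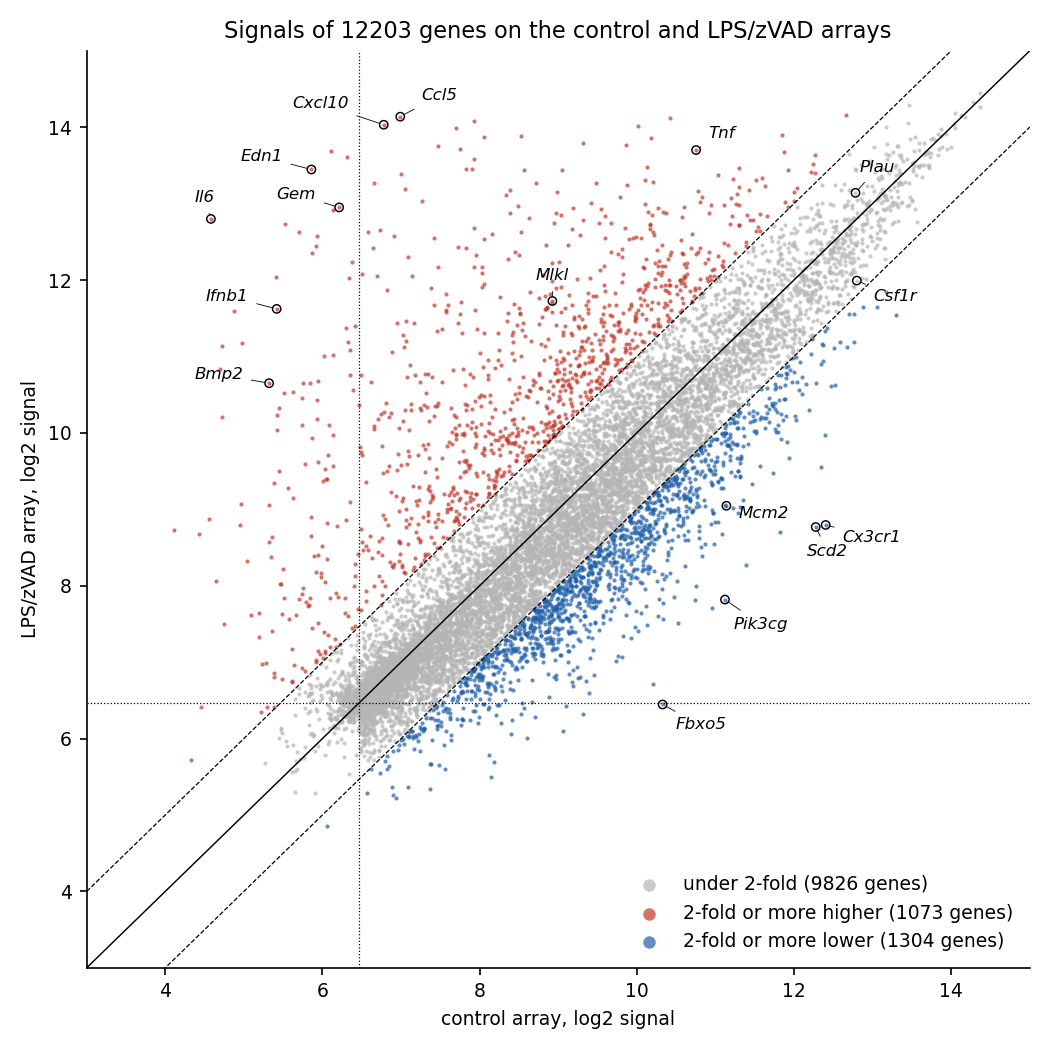
Log2 signal of 12203 genes on the control array (horizontal) and on the LPS/zVAD array (vertical). The solid line marks equal signals, the dashed lines 2-fold and the dotted lines the filter level of 6.47; 1073 genes lie above the upper dashed line and 1304 below the lower one, and the points above reach farther from the diagonal.

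The balance between higher and lower genes moved with the scaling of the arrays and with the signal level. With the genes in 5 equal bins by mean signal, the lowest bin had 52 genes higher and 113 lower, the middle bin 202 and 433, and the highest bin 422 and 130. The median difference was -0.07 in the lowest bin, -0.33 in the middle bin and -0.03 in the highest. As deposited, 45.1% of the genes past 2-fold were on the higher side. Cyclic loess, a scaling that reduces such level-dependent trends, gave 1287 higher and 906 lower genes, a share of 58.7%, and brought the median of all genes to 0.00. Differences of gene lists below are therefore read beside that overall shift. The other probes of genes with several probes gave a check within the same arrays. Of 57 higher genes with another probe past the filter level, 32 were past 2-fold on every such probe, 22 had a smaller difference in the same direction on at least 1 of them, and 3 had 1 that pointed the other way. Of 63 lower genes the numbers were 37, 25 and 1.

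**Figure D2:**
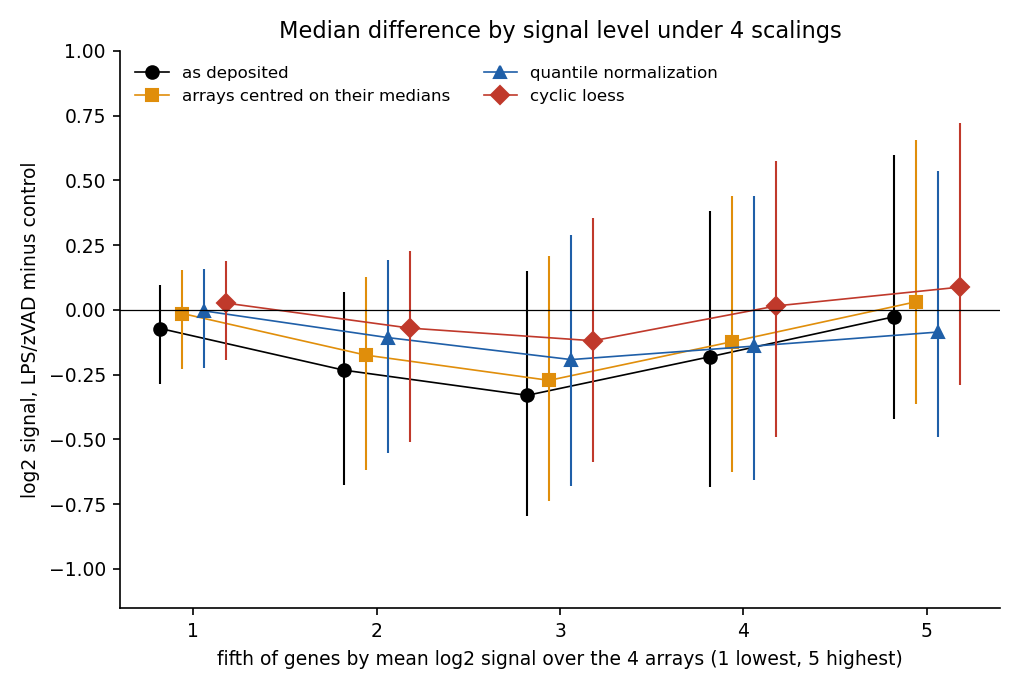
Median log2 difference, LPS/zVAD minus control, in 5 equal bins of the 12203 genes by mean signal, under 4 scalings; vertical lines run from the lower to the upper quartile of genes. As deposited the median dips to -0.33 in the middle bin, and after cyclic loess it is -0.12 there.

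Genes of the interferon response stood near the top of the comparison. Of the 12 largest differences with both signals above the filter level, 5 belonged to the list of interferon stimulated genes: Ifit2, Ifit1, Rsad2, Ifit3 and Mx1. Ifit1, whose protein binds viral RNA lacking cap methylation, had signals of 7.47, 13.38, 13.75 and 13.37 and was 77.9-fold higher. Its LPS/zVAD signal was the highest of the 4, with the other LPS-treated arrays close behind. IFIT and guanylate binding protein genes have near-identical copies, and a probe may read more than 1 of them. Rsad2, the antiviral enzyme viperin, had 7.93, 14.03, 14.08 and 13.99, a 71.0-fold difference. Mx2, a dynamin-like antiviral GTPase, was under the filter level in control (5.87, 11.65, 12.36 and 11.74) and at least 59.2-fold higher. All 38 measured members of the list were past the filter level, 37 were higher and 0 lower, with a median of 2.89, and the exception was Ifitm3 at 0.37. The median for the same genes was 2.80 with LPS alone and 2.79 with LPS/zVAD/Nec-1, all 3 measured against the same control array.

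Guanylate binding proteins and immunity-related GTPases attack the membranes around intracellular microbes. Their list had the highest median of the 51 gene lists, 5.18 (4.92 counted from the filter level). All 10 measured members, of 19 listed, were higher. In control 7 of the 10 were under the filter level, so these passed the filter only through arrays with LPS. Gbp5 gave 5.52, 12.82, 12.74 and 12.69, at least 77.0-fold higher with LPS/zVAD than in control, and Gbp3 at least 87.4-fold. The immunity-related GTPase gene Iigp1 was at least 47.6-fold higher. These 3 were under the filter level in control and nearly equal in the arrays with LPS.

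Upstream of these genes, Ifnb1, which encodes interferon beta, had 5.42, 6.48, 11.62 and 7.51 on the 4 arrays and was at least 35.5-fold higher with LPS/zVAD. Its LPS/zVAD signal was far above all 3 other arrays, and that of LPS alone was barely past the filter level. Of the 13 measured type I interferon genes, 9 lay under the filter level on all arrays, and of the 4 past it Ifnb1 was the one past 2-fold. Of 19 interferon regulatory factors, STAT proteins and their kinases and receptors, 10 were higher and 1 lower (median 1.16). Irf1, a factor induced by interferons and NF-kB, had signals of 8.63, 11.46, 12.81 and 11.86 and was 18.2-fold higher, with its peak under LPS/zVAD. Irf7, which amplifies interferon production, had signals of 9.19, 13.28, 12.94 and 13.15 and was 13.5-fold higher, close to equal in the 3 LPS-treated arrays. Irf3, the factor that TRIF activates first, was the lower member (8.86, 8.57, 7.80 and 8.56), and after cyclic loess no member was lower.

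The promoter of Ifit1 is shown because it holds a form of the interferon stimulated response element, a motif known from many interferon stimulated genes. The letters searched, on both strands, were GAAA, any 2 bases, then GAAA. In the stretch of 120 bases at chr19:34640749-34640868 of GRCm38.p6, plus strand, from the RefSeq promoter table, 2 matches stand in capitals, the nearer one beginning 85 bases before the annotated start. The table is of the C57BL/6J genome and not of BALB/c.
Ifit1: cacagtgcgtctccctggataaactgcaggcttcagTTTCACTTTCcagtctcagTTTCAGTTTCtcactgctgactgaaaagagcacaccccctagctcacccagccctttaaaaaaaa
The letters were found in 14 of the 37 promoters of 28 interferon stimulated genes in the table (37.8%) and in 5 of 6 promoters of 5 GTPase genes (83.3%), against 3.44% of all 32851 promoters of 300 bases. The promoters with the letters belong to 13 interferon stimulated genes and 5 GTPase genes. A match is a description of the letters and no measure of binding.

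Inflammatory cytokines were next in size. Of 32 measured cytokine and growth factor genes, 22 were higher with LPS/zVAD and 0 lower, and 28 were past the filter level. The median was 3.52 (3.305 counted from that level), and 15 of the 32 genes were under that level in control. Il6 gave 4.58, 12.88, 12.80 and 12.76, at least 80.4-fold higher with LPS/zVAD than in control. Il1a, a cytokine that dying cells release, had 6.11, 13.96, 13.69 and 13.72 and was at least 149-fold higher. Il1b, which caspase-1 must cleave to activate, had 7.83, 13.77, 13.45 and 13.52 on the 4 arrays and was 49.1-fold higher. For these 3 genes the control stood alone at the bottom and the LPS-treated arrays lay close together. Tnf, which can itself start necroptosis, had signals of 10.75, 12.57, 13.70 and 13.07 and was 7.71-fold higher, with its highest signal with LPS/zVAD.

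Another set of secreted factors stood highest with LPS/zVAD by a wide step. Edn1, the gene of the vasoconstrictor endothelin-1, gave 5.86, 11.33, 13.45 and 12.29, at least 126-fold higher with LPS/zVAD than in control. Inhba, an activin subunit, had 6.38, 9.83, 12.23 and 10.58 on the 4 arrays and was at least 54.2-fold higher. Tnfsf15, a ligand of death receptor 3, had signals of 6.64, 10.95, 12.42 and 11.38 and was 55.1-fold higher. The growth factor gene Bmp2 gave 5.32, 5.73, 10.65 and 6.57, at least 18.1-fold higher with LPS/zVAD than in control. Lif, which signals through gp130 as interleukin 6 does, had 5.94, 5.51, 10.19 and 6.32 on the 4 arrays and was at least 13.1-fold higher. Both were under the filter level in control and with LPS alone. Hbegf, a ligand of the EGF receptor, had signals of 7.93, 8.72, 12.17 and 9.77 and was 18.8-fold higher. Il12b, the shared subunit of interleukins 12 and 23, ran the other way among the LPS-treated arrays. Its signals were 5.94, 12.17, 9.62 and 12.004, so LPS/zVAD was at least 8.87-fold above control and still the lowest of the 3 arrays with LPS. The anti-inflammatory Tgfb1 was not past 2-fold (11.55, 11.10, 11.16 and 11.04).

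Both chemokine families held members that were higher, and these differed in how the LPS/zVAD array stood against the others. Of 13 CXC chemokines (10 past the filter), 7 were higher and 1 lower (median 2.09). Cxcl10, which draws T cells through CXCR3, had signals of 6.78, 13.86, 14.03 and 13.88 and the largest difference with both signals above the filter level, 152-fold. Cxcl11, a ligand of the same receptor, gave 6.66, 13.58, 13.26 and 13.45, 97.2-fold higher with LPS/zVAD than in control. Cxcl1, a neutrophil attractant, had 8.38, 10.00, 13.18 and 10.74 on the 4 arrays and was 27.9-fold higher, and its LPS/zVAD signal stood clearly above all others. Cxcl2 of the same group had signals of 10.01, 12.48, 14.01 and 13.21 and was 15.97-fold higher. Cxcl14, a chemokine of resting epithelia, was the lower member (11.64, 10.22, 10.20 and 10.48). Of 17 CC chemokines (15 past the filter), 7 were higher and 0 lower (median 0.82). Ccl5, an attractant of T cells and monocytes, gave 6.99, 14.19, 14.14 and 14.15, 142-fold higher with LPS/zVAD than in control. Ccl17, a ligand of CCR4, had signals of 6.02, 12.61, 11.005 and 11.28 and was at least 23.2-fold higher than control, with LPS alone higher still. Ccl3, a macrophage inflammatory protein with a high signal at rest, was not past 2-fold (13.46, 14.12, 14.29 and 14.21).

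Components of the TLR4 pathway were mostly under 2-fold, while most NF-kB feedback genes were higher. Both lists held a larger share of higher members than the 8.79% of all genes. Neither held a lower member, beside 10.7% of all genes. Tlr4 itself had signals of 9.99, 9.51, 10.15 and 9.20 and its co-receptor Cd14 had 13.07, 13.55, 13.33 and 13.38. Of 19 receptor and adaptor genes, 5 were higher and 0 lower (median 0.27): Ticam1, which encodes TRIF (8.76, 9.43, 10.76 and 9.75), Irak2, a kinase of the MyD88 complex (10.32, 12.22, 12.10 and 12.33), Traf6 (9.39, 10.40, 10.995 and 10.18) and Tbk1 (9.16, 10.60, 10.54 and 10.20), a ubiquitin ligase and a kinase of the pathway, and Myd88 (11.10, 12.36, 12.17 and 12.30). Ticam1 and Traf6 had their highest signals with LPS/zVAD. Of 20 NF-kB subunits and regulators, 13 were higher and 0 lower (median 1.72). Tnfaip3, which encodes the ubiquitin-editing inhibitor A20, had 8.95, 11.87, 12.75 and 11.83 on the 4 arrays and was 14.0-fold higher, and its signal was highest with LPS/zVAD. Nfkbiz, an atypical IkB protein needed for Il6 induction, had signals of 7.57, 10.98, 11.58 and 11.18 and was 16.2-fold higher. Traf1, an adaptor of TNF receptors, gave 6.89, 11.38, 11.06 and 11.15, 18.0-fold higher with LPS/zVAD than in control. Of 12 suppressors of cytokine signalling, 7 were higher and 0 lower (median 1.54, or 1.08 with the mean of a gene's probes). Socs3, the feedback inhibitor of interleukin 6 signalling, had 7.08, 12.45, 12.30 and 12.25 on the 4 arrays and was 37.2-fold higher. Socs2 had signals of 5.42, 8.29, 10.23 and 7.38 and was at least 13.5-fold higher. Cish gave 6.48, 8.07, 9.82 and 7.76, 10.1-fold higher with LPS/zVAD than in control. Both are feedback targets of STAT5, and both were highest with LPS/zVAD.

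Stretches of the Tnfaip3 and Cxcl1 promoters are shown because they hold the letters searched for the NF-kB and CXC chemokine lists. The named genes of each list were taken by size of difference, and the first with a match before its start is shown. That these stretches hold a match was therefore fixed by the choice. The letters searched, on both strands, were GGG, any 2 bases, then TTTCC, a form of the NF-kB site, in capitals here. The Tnfaip3 stretch is chr10:19015411-19015530, minus strand, and the Cxcl1 stretch is chr5:90891119-90891238, plus strand, both of 120 bases in GRCm38.p6 from the RefSeq promoter table.
Tnfaip3: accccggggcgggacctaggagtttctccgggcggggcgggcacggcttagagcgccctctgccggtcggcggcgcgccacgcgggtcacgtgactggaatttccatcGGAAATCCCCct
Cxcl1: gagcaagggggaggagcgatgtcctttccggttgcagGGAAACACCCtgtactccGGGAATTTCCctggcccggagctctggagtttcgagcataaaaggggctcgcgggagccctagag
The Tnfaip3 match began 12 bases and the nearer of 2 Cxcl1 matches 71 bases before the annotated start. The letters were found in 8 of 24 promoters of NF-kB genes (33.3%), 3 of 10 promoters of CXC chemokines (30.0%) and 5 of 27 promoters of cytokines (18.5%), against 1.63% of all promoters. A gene may have several starts. By gene, they were in 6 of 16 NF-kB genes, 3 of 10 CXC chemokines and 4 of 22 cytokines.

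In the counts of gene lists, a member under the filter level counts as measured and not as higher or lower. Immediate early genes, which code for transcription factors and regulators switched on without new protein synthesis, were mostly higher or near control. Of 32 members, 17 were higher with LPS/zVAD and 2 lower (median 1.16). Csrnp1, a nuclear protein induced by growth signals, had 7.42, 9.81, 12.56 and 10.67 on the 4 arrays and was 35.2-fold higher. Maff, a small MAF factor, had signals of 6.62, 7.20, 10.66 and 7.57 and was 16.4-fold higher. Plk2, a polo-like kinase, gave 9.87, 10.48, 13.24 and 12.19, 10.3-fold higher with LPS/zVAD than in control. Egr1, an early growth response factor, had signals of 7.78, 7.13, 9.99 and 8.20, lower with LPS alone than in control and 4.63-fold higher with LPS/zVAD. In all 4 of these genes the LPS/zVAD array was the highest. Fos had signals of 8.09, 8.41, 8.76 and 8.29, and Jun had 11.44, 10.57, 11.93 and 10.75. This classical AP-1 pair was not past 2-fold. The lower members were Myc, a growth-promoting factor (11.63, 10.20, 10.07 and 10.65), and Srf, the serum response factor that itself drives many immediate early genes (9.34, 8.85, 7.86 and 8.65). The median of this list was 0.60 with LPS alone and 0.33 with LPS/zVAD/Nec-1 against the same control.

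Phosphatases and inhibitors that switch off MAP kinases held more higher than lower members, beside 8.79% higher and 10.7% lower among all genes. Of 17 genes, 7 were higher and 2 lower (median 0.75). Dusp10, which acts on p38 and JNK, had 7.46, 8.26, 11.33 and 9.19 on the 4 arrays and was 14.6-fold higher. Dusp1, a broad MAP kinase phosphatase, had signals of 9.55, 12.69, 12.93 and 12.71 and was 10.4-fold higher. Dusp4, a nuclear phosphatase of ERK, gave 8.37, 9.31, 11.57 and 10.02, 9.19-fold higher with LPS/zVAD than in control. Dusp6, the cytoplasmic ERK phosphatase, had 12.34, 10.07, 9.55 and 9.90 on the 4 arrays and was 6.91-fold lower. Dusp7, its relative, was the other lower member (difference -1.67). Dusp10 and Dusp4 were highest with LPS/zVAD, while Dusp6 was lowest there. The letters TGANTCA, a form of the AP-1 site, were in 0 of 15 promoters of this list and in 7.81% of all promoters. The CArG box was in 6 of 36 promoters of the immediate early list (16.7%), which belong to 3 genes, and in 1.63% of all. The cAMP response letters TGACGTCA were in 3 of the 36 (8.33%) and in 1.79% of all.

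**Figure D3:**
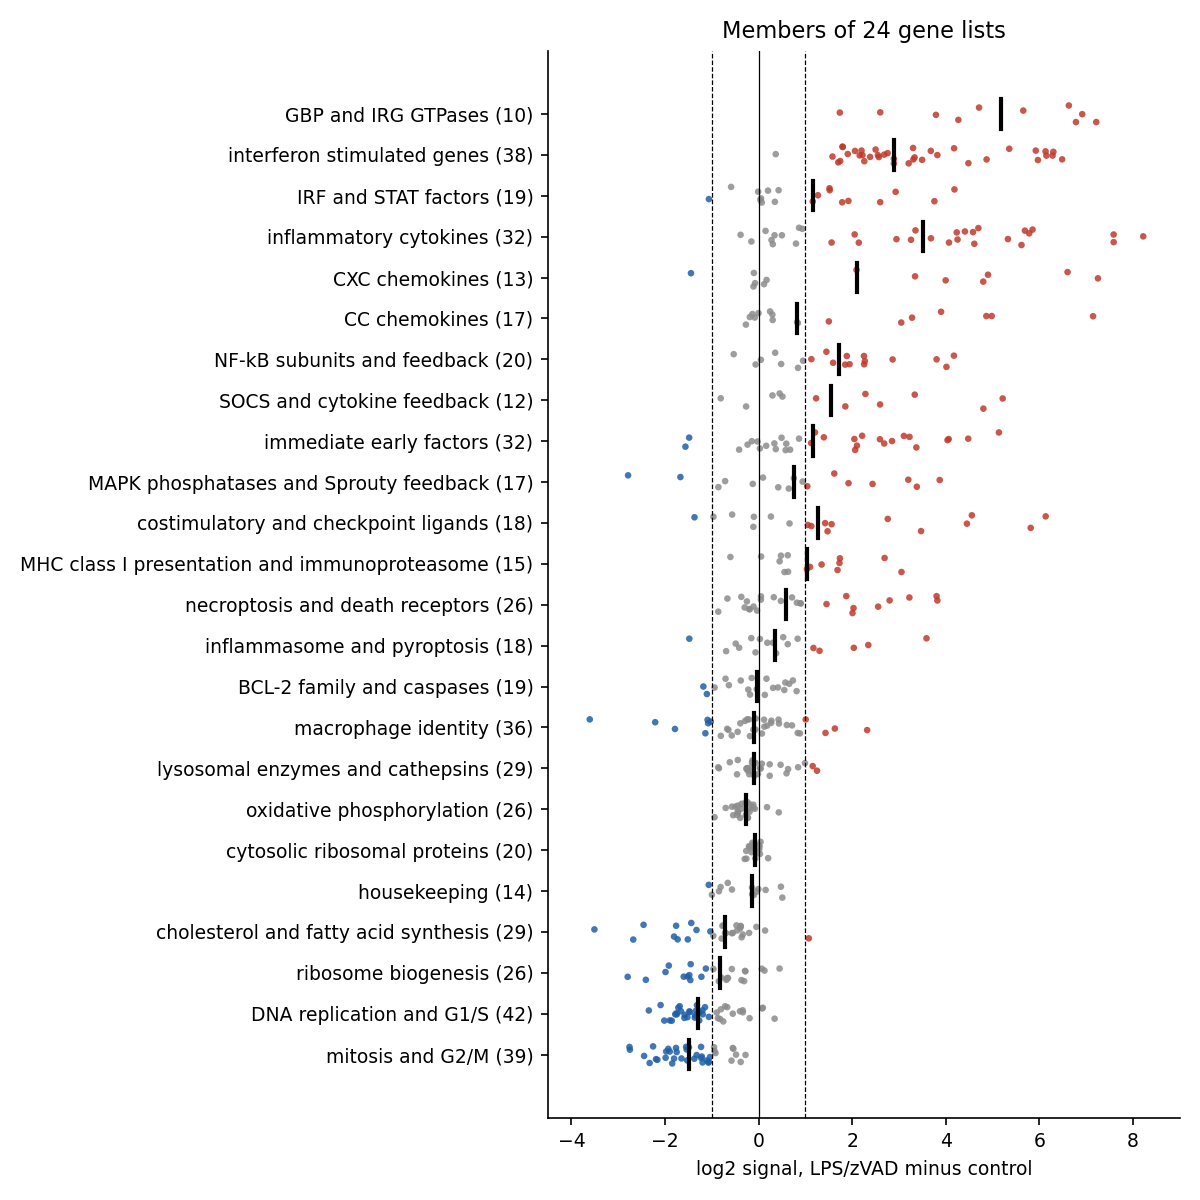
Log2 difference, LPS/zVAD minus control, of each measured member of 24 gene lists (number of measured members in brackets); black bars mark list medians, dashed lines 2-fold, and red and blue points members past the filter that were higher or lower. Interferon and cytokine lists lie to the right, with medians up to 5.18, and cell cycle lists to the left, down to -1.49.

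Genes by which macrophages speak to T cells also held higher members. Of 18 costimulatory and checkpoint ligands, 11 were higher and 1 lower (median 1.27). Cd274, which encodes the checkpoint ligand PD-L1, had signals of 8.06, 13.29, 13.88 and 13.48 and was 56.3-fold higher. Slamf7, a self-ligand receptor of leukocytes, gave 7.05, 12.65, 13.19 and 12.96, 70.3-fold higher with LPS/zVAD than in control. Cd40, a receptor for T cell help, had 8.72, 13.57, 13.27 and 13.58 on the 4 arrays and was 23.5-fold higher. The costimulator Cd86 had signals of 8.15, 11.37, 12.60 and 11.67 and was 21.9-fold higher. Cd86 and Cd83 (9.32, 11.27, 12.79 and 11.66) were highest with LPS/zVAD, whereas Cd40 was close to its LPS level. The lower member, Vsir, encodes the checkpoint protein VISTA (11.58, 10.20, 10.21 and 9.92). Of 15 genes of class I presentation and the immunoproteasome, 8 were higher and 0 lower (median 1.03). Nlrc5, the class I transactivator, gave 8.51, 11.72, 11.56 and 11.80, 8.30-fold higher with LPS/zVAD than in control. These are the values of the brightest of its 19 probes, and the others are not given here. The peptide transporter Tap1 had 9.67, 12.33, 12.36 and 12.36 on the 4 arrays and was 6.46-fold higher. Of 13 class II genes, 3 were higher and 1 lower (median 0.24): the chain genes H2-Ab1 (8.11, 9.57, 9.45 and 9.06) and H2-Aa (9.19, 10.15, 10.29 and 9.84) and the invariant chain Cd74 (8.95, 10.29, 9.96 and 9.74) were higher, and H2-DMa, which loads the peptide, was lower (10.27, 9.78, 9.19 and 9.81). After cyclic loess 5 class II genes were higher and 0 lower.

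The genes of necroptosis itself were unequal. Ripk3 had signals of 9.84, 9.44, 9.74 and 9.40, a difference of -0.11 that became 0.09 after cyclic loess. Mlkl, the membrane-breaking executor, had signals of 8.93, 11.86, 11.73 and 11.73 and was 6.96-fold higher. Zbp1, a nucleic acid sensor that can recruit RIPK3, gave 8.50, 12.45, 12.32 and 12.42, 14.1-fold higher with LPS/zVAD than in control. For Mlkl and Zbp1 the LPS-treated arrays were nearly equal. Casp8, the protease that zVAD blocks at this step, had 12.50, 13.17, 12.98 and 13.03. Cflar, which encodes its partner and brake cFLIP, had 9.02, 11.62, 12.24 and 11.61 on the 4 arrays and was 9.33-fold higher, with the LPS/zVAD array the highest. Fas, a death receptor, had signals of 6.30, 9.22, 8.85 and 8.95 and was at least 5.22-fold higher. Among 26 measured genes of necroptosis and death receptors 9 were higher and 0 lower (median 0.60); Ripk1 had no probe with a single symbol and was not analysed here. The other higher members were Tnfaip3 and Ticam1, given above, the TNF receptor gene Tnfrsf1b, the apoptosis inhibitor Birc3 and Rnf31, a subunit of the linear ubiquitin ligase. Their signals were 10.95, 13.41, 12.98 and 13.26 for Tnfrsf1b, 9.08, 11.42, 10.95 and 11.20 for Birc3 and 8.63, 10.32, 10.08 and 10.23 for Rnf31. After cyclic loess 12 genes of this list were higher and 0 lower (median 0.73).

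Of 19 measured BCL-2 family and caspase genes, 0 were higher and 2 lower (median -0.04), beside 8.79% higher and 10.7% lower among all genes. The lower members were Casp9, the caspase of the apoptosome (9.30, 8.96, 8.11 and 9.02), and Bcl2, the founding survival gene (10.41, 8.89, 9.30 and 8.99). After cyclic loess 1 was higher and 0 lower and the median was 0.07. Of 18 inflammasome and pyroptosis genes, 5 were higher and 1 lower (median 0.34). Casp4, the sensor of cytosolic LPS, gave 9.42, 12.96, 13.01 and 12.91, 12.02-fold higher with LPS/zVAD than in control. Casp1, the inflammasome protease, had 9.38, 12.18, 11.72 and 11.98 on the 4 arrays and was 5.08-fold higher. Gsdmd, the pore-forming gasdermin, had signals of 8.47, 10.38, 9.64 and 10.18 and was 2.25-fold higher. The DNA sensor Aim2 gave 9.64, 11.41, 11.68 and 11.42, 4.10-fold higher with LPS/zVAD than in control. Ninj1, which ruptures the membrane of dying cells, had 11.16, 12.15, 12.46 and 12.17 on the 4 arrays and was 2.47-fold higher. Pycard, the adaptor ASC, was the lower member (10.62, 10.63, 9.14 and 10.20), and it was nearly equal in control and with LPS alone. Of 16 genes of the ESCRT-III machinery, which sheds damaged membrane and delays necroptotic rupture, Chmp1b (7.97, 9.62, 11.36 and 9.78) and Ist1 (10.92, 12.07, 12.36 and 12.11) were higher and 0 were lower (median -0.04, or 0.10 after cyclic loess). Chmp1b was 10.5-fold higher, with its peak under LPS/zVAD.

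**Figure D4:**
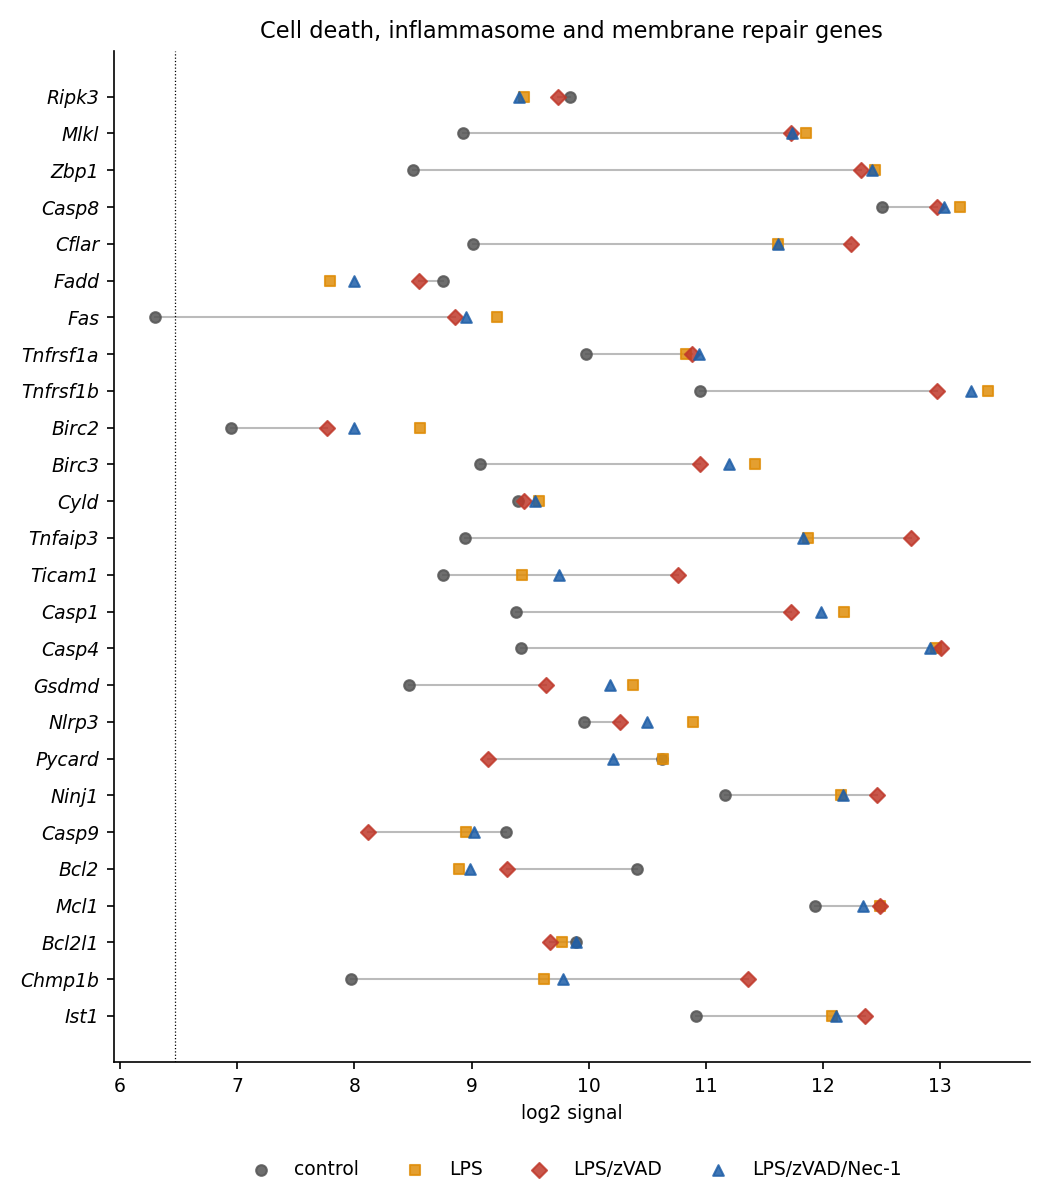
Log2 signals of 26 cell death, inflammasome and membrane repair genes on the 4 arrays, with a line from control to LPS/zVAD and a dotted line at the filter level. Mlkl, Zbp1 and Casp4 sit together on the LPS-treated arrays, Tnfaip3, Ticam1 and Chmp1b are highest with LPS/zVAD, and Pycard and Casp9 are lowest there.

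Of 31 genes of the integrated stress and unfolded protein responses, 7 were higher and 3 lower (median -0.15). This count and those of the next 2 lists stand beside 8.79% higher and 10.7% lower among all genes. Ppp1r15a, which encodes the phosphatase subunit GADD34 that ends the stress response, had signals of 7.38, 8.65, 11.90 and 9.32 and was 22.9-fold higher, with its peak under LPS/zVAD. Atf4, the central factor of the integrated stress response, had signals of 9.56, 10.05, 11.22 and 10.56 and was 3.14-fold higher. Its target Ddit3 gave 7.93, 9.33, 9.81 and 9.45, 3.67-fold higher with LPS/zVAD than in control. Hspa5, the chaperone that marks endoplasmic reticulum stress, was level (13.28, 13.27, 13.30 and 13.32), and the lower members were the sensor kinase Eif2ak3 (8.70, 7.42, 7.10 and 7.25), the chaperone gene Sdf2l1 (12.76, 11.45, 11.19 and 11.51) and Pdia4, a disulfide isomerase (difference -1.03). After cyclic loess Pdia4 was not past 2-fold. Of 17 heat shock chaperones, 4 were higher and 0 lower (median 0.12). The inducible Hspa1a, whose near-identical copy Hspa1b the probe may also read, had 7.76, 12.69, 11.71 and 12.64 on the 4 arrays and was 15.5-fold higher. Of 24 NRF2 and antioxidant genes, Slc7a11, the cystine transporter, was higher (7.03, 11.32, 11.28 and 11.03) and 0 were lower (median -0.16).

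Cell cycle genes held the most lower members of the 51 lists. Macrophages in colony stimulating factor divide, and of 42 measured genes of DNA replication and the G1/S step, 27 were lower with LPS/zVAD and 0 higher (median -1.29). After cyclic loess 24 of them were lower (median -1.08). Rrm2, a subunit of ribonucleotide reductase, had signals of 11.29, 8.36, 8.95 and 8.12 and was 5.08-fold lower. Mcm2, a subunit of the replicative helicase, gave 11.14, 8.59, 9.05 and 8.65, 4.27-fold lower with LPS/zVAD than in control. Mcm7 of the same complex had 10.97, 8.32, 8.95 and 8.47 on the 4 arrays and was 4.04-fold lower. In all 3 the control stood apart and the LPS/zVAD signal was slightly the highest of the arrays with LPS. Other members stayed near control: Pcna, the sliding clamp, had 12.95, 12.51, 13.04 and 12.73, and Cdt1, a licensing factor, 10.29, 9.54, 10.63 and 10.02. Of 39 genes of mitosis, 30 were lower and 0 higher (median -1.49), and after cyclic loess 25 were lower (median -1.31). Anln, a cytokinesis scaffold, had signals of 10.75, 8.11, 7.99 and 8.16 and was 6.77-fold lower. The motor gene Kif2c gave 9.82, 7.40, 7.07 and 7.66, 6.73-fold lower with LPS/zVAD than in control. The mitotic kinase Plk1 had 10.87, 9.08, 8.54 and 9.48 on the 4 arrays and was 5.02-fold lower. These 3 were lowest with LPS/zVAD. Mki67, the proliferation marker Ki-67, was not past 2-fold (11.97, 10.79, 11.05 and 10.71). Fbxo5 had signals of 10.33, 7.30, 6.45 and 7.67 and was at least 14.5-fold lower, the largest lower difference among the 12203 genes, with its LPS/zVAD signal just under the filter level. Pole2, a polymerase subunit, and Aspm, a spindle protein, were at least 7.17-fold and 6.19-fold lower.

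The letters TTTNNCGC, a form of the site read by E2F factors at the G1/S step, were searched on both strands. Mcm7 was chosen as Tnfaip3 and Cxcl1 were, as the first named gene of its list with a match before its start. A match in the Mcm7 promoter is shown in capitals for the replication genes, in 120 bases at chr5:138171985-138172104 of GRCm38.p6, minus strand, from RefSeq, beginning 165 bases before the annotated start.
Mcm7: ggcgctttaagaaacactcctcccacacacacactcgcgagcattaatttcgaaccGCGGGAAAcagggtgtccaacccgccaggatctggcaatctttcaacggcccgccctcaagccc
The letters were in 16 of 41 promoters of replication genes (39.0%), in 1 of 33 promoters of mitosis genes (3.03%) and in 5.17% of all promoters. By gene, they were in 15 of 35 replication genes and 1 of 31 mitosis genes.

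Growth genes around the cycle also held lower members. Of 22 cyclins D, CDK inhibitors and p53 targets, 2 were higher and 7 lower (median -0.47). Ccnd1, the cyclin through which growth factors act, gave 13.30, 11.29, 11.54 and 11.72, 3.38-fold lower with LPS/zVAD than in control. Cdkn2c, an inhibitor of CDK4 and CDK6, had 10.33, 8.53, 7.56 and 8.53 on the 4 arrays and was 6.81-fold lower. Sesn1, a p53 target that restrains the kinase mTORC1, had signals of 10.96, 9.12, 7.71 and 8.66 and was 9.49-fold lower. Mdm2, the ubiquitin ligase of p53, gave 10.33, 11.93, 12.89 and 11.77, 5.89-fold higher with LPS/zVAD than in control. Sesn1 was lowest and Mdm2 highest with LPS/zVAD. Ribosome biogenesis genes had 11 of 26 members lower and 0 higher (median -0.82). Rrp1b, a nucleolar processing factor, had 9.39, 6.95, 6.60 and 6.62 on the 4 arrays and was 6.95-fold lower. Dkc1, the pseudouridine synthase dyskerin, had signals of 10.05, 7.47, 7.64 and 7.10 and was 5.31-fold lower. Ribosomal proteins themselves had 0 of 20 members past 2-fold, with differences from -0.30 to 0.20, and none of 18 aminoacyl-tRNA synthetases or 26 oxidative phosphorylation genes was past it. Of 14 housekeeping genes Ipo8, a nuclear import receptor, was lower (9.72, 9.67, 8.65 and 9.69), though not past 2-fold after cyclic loess; Actb had 14.36, 14.35, 14.26 and 14.37.

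Genes of lipid synthesis were lower at several steps. Of 29 genes of cholesterol and fatty acid synthesis, 10 were lower and 1 higher (median -0.72). Scd2, a desaturase of fatty acids, gave 12.28, 10.01, 8.77 and 7.62, 11.4-fold lower with LPS/zVAD than in control, with its lowest signal when Nec-1 was also present. Elovl6, a fatty acid elongase, had 9.76, 6.91, 7.08 and 6.89 on the 4 arrays and was 6.403-fold lower. The squalene epoxidase Sqle had signals of 10.28, 7.98, 7.82 and 7.78 and was 5.50-fold lower. The fatty acid synthase Fasn gave 10.08, 7.71, 8.27 and 7.68, 3.50-fold lower with LPS/zVAD than in control. Hmgcs1, an early enzyme of the cholesterol pathway, was not past 2-fold (10.22, 10.01, 9.76 and 9.84). Insig1, which holds the sterol-sensing factor SREBP in the endoplasmic reticulum, was the higher member (11.57, 10.42, 12.64 and 11.19): it was lower with LPS alone than in control and 2.10-fold higher with LPS/zVAD. The sterol response letters TCACNCCAC were in 1 of 27 promoters of this list (3.70%) and in 1.24% of all. Of 19 LXR targets and lipid handling genes, 2 were higher and 1 lower (median -0.14). The lipid chaperone Fabp4 had 8.44, 9.42, 11.69 and 9.45 on the 4 arrays and was 9.56-fold higher. Fabp5 had signals of 11.09, 10.92, 12.25 and 11.18 and was 2.22-fold higher. Abca1, the cholesterol exporter, gave 9.82, 10.03, 7.93 and 7.92, 3.73-fold lower with LPS/zVAD than in control. Both Fabp genes were highest with LPS/zVAD, and Abca1 was low in both arrays with zVAD.

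Energy and effector metabolism genes are likewise set beside 8.79% higher and 10.7% lower among all genes. Of 26 glycolytic genes and HIF targets, 3 were higher and 5 lower (median -0.20). Pfkfb3, which makes the activator of phosphofructokinase, had 8.76, 11.58, 11.77 and 11.18 on the 4 arrays and was 8.03-fold higher. Pdk1, a brake on pyruvate oxidation, had signals of 9.57, 8.33, 7.61 and 7.63 and was 3.90-fold lower. Egln1, the main oxygen-sensing prolyl hydroxylase, gave 10.21, 9.85, 8.47 and 8.84, 3.33-fold lower with LPS/zVAD than in control. For these 2 lower genes the arrays with zVAD lay closer to each other than to LPS alone. Of 16 genes of nitric oxide, arginine and itaconate metabolism, 6 were higher and 1 lower (median 0.67), or 6 and 0 after cyclic loess. Nos2, the inducible nitric oxide synthase, had 6.58, 13.03, 12.63 and 12.71 on the 4 arrays and was 66.1-fold higher. Acod1, which makes itaconate, had signals of 10.42, 14.14, 14.12 and 14.10 and was 12.999-fold higher. The arginine transporter Slc7a2 gave 8.36, 12.27, 12.28 and 11.96, 15.1-fold higher with LPS/zVAD than in control. Arg2, a mitochondrial arginase, had 7.52, 11.17, 11.35 and 10.01 on the 4 arrays and was 14.3-fold higher. Of 20 genes of prostaglandin and leukotriene synthesis and reception (15 past the filter), 2 were higher and 2 lower (median -0.32, or 0.00 counted from the filter level). Ptgs2, the inducible cyclooxygenase, had signals of 6.32, 13.36, 13.61 and 13.45 and was at least 141-fold higher. Ptges, the prostaglandin E synthase, gave 7.03, 12.33, 11.12 and 11.14, 17.0-fold higher with LPS/zVAD than in control. Cysltr1, a leukotriene receptor (12.07, 11.48, 10.56 and 11.13), and Tbxas1, thromboxane synthase (11.37, 10.48, 10.20 and 10.50), were lower.

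Of 36 macrophage identity genes, 25 stayed under 2-fold, as did 9826 of all 12203 genes. The list had 4 higher and 7 lower members (median -0.09), beside 8.79% higher and 10.7% lower among all genes. After cyclic loess 5 were higher and 4 lower. Cx3cr1, the fractalkine receptor, had 12.40, 10.46, 8.79 and 10.71 on the 4 arrays and was 12.2-fold lower, the largest lower difference with both signals above the filter level. Ccr2, the receptor for monocyte attractants, had signals of 11.22, 11.04, 9.02 and 10.09 and was 4.63-fold lower. The transcription factor Maf gave 12.01, 11.79, 10.22 and 11.81, 3.45-fold lower with LPS/zVAD than in control. All 3 were lowest with LPS/zVAD, and for Ccr2 and Maf the LPS signal was close to control. Cebpb, a factor of inflammatory macrophages, had 9.20, 11.49, 11.52 and 11.14 on the 4 arrays and was 4.99-fold higher. Among 13 chemokine receptors (8 past the filter) 3 were higher and 2 lower (median 0.26, or 0.00 counted from the filter level). Ccrl2, a non-signalling chemerin receptor, had signals of 7.92, 12.26, 13.58 and 12.75 and was 50.5-fold higher. Ccr1, a receptor of inflammatory CC chemokines, gave 9.87, 10.83, 11.09 and 10.05, 2.33-fold higher with LPS/zVAD than in control. Pik3cg, a phosphoinositide kinase of leukocyte migration, had signals of 11.12, 9.89, 7.82 and 9.12 and was 9.87-fold lower, with its lowest signal under LPS/zVAD.

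Counts of clearance, adhesion and matrix genes are given beside 8.79% higher and 10.7% lower among all genes. Of 29 receptors and adaptors for scavenging and dead-cell clearance, 4 were higher and 5 lower (median -0.06), or 5 and 3 after cyclic loess (median 0.06). Olr1, a receptor of oxidised lipoprotein, had 6.13, 10.83, 11.02 and 10.65 on the 4 arrays and was at least 23.4-fold higher. The bridging receptor Axl had signals of 10.27, 11.96, 11.70 and 11.92 and was 2.69-fold higher. Itgb5, an integrin chain that takes part in clearing dead cells, gave 12.47, 10.92, 10.61 and 11.09, 3.63-fold lower with LPS/zVAD than in control. The scavenger Stab1 had 12.35, 11.35, 10.89 and 11.03 on the 4 arrays and was 2.74-fold lower. Of 18 integrins and adhesion molecules, 4 were higher and 1 lower (median 0.07). Icam1, a ligand of leukocyte integrins, had signals of 10.26, 12.51, 12.39 and 12.71 and was 4.37-fold higher. Itga6, a laminin receptor chain, gave 11.02, 9.43, 9.68 and 9.33, 2.52-fold lower with LPS/zVAD than in control. Of 26 proteases and coagulation genes, 10 were higher and 1 lower (median 0.33). F3, the tissue factor that starts coagulation, had signals of 5.95, 7.25, 10.67 and 7.38 and was at least 18.4-fold higher, with its peak under LPS/zVAD. The collagenase Mmp13 had 9.04, 13.78, 13.43 and 13.46 on the 4 arrays and was 21.0-fold higher. Mmp14, a membrane-bound protease, had signals of 7.64, 12.22, 10.32 and 11.66 and was 6.403-fold higher, though LPS/zVAD was the lowest of the LPS-treated arrays. Of 29 lysosomal genes, Atp6v0d2, a proton pump subunit (8.55, 8.56, 9.80 and 8.02), and Gla, alpha-galactosidase (11.54, 12.01, 12.70 and 12.14), were higher and 0 were lower (median -0.09, or 0.02 after cyclic loess).

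Some genes stood apart with LPS alone and under 2-fold from control with LPS/zVAD, which is the rule they were taken by. The differences from control and from LPS share arrays, so their values are given side by side. Plau, the urokinase plasminogen activator, had signals of 12.78, 9.46, 13.14 and 10.71, so the control and LPS/zVAD arrays differed by 0.36 while LPS alone lay far below both. Clec4a1, a C-type lectin, ran in the reverse sense (7.98, 11.51, 8.86 and 10.65), as did Hp, which encodes haptoglobin (7.08, 10.39, 7.91 and 8.47). Siglece, an inhibitory sialic acid receptor, had 7.42, 10.39, 7.75 and 8.77, and the membrane protein gene Tmem176a 7.29, 10.45, 7.95 and 9.34. The lipid receptor Gpr18 had 7.34, 10.21, 7.85 and 9.73. None of these 6 genes was past 2-fold in the pair as deposited, and after cyclic loess Clec4a1 and Hp were, at 1.08 and 1.03. The reverse case was Gem, a small GTP-binding protein, which had signals of 6.21, 7.82, 12.95 and 10.13 and was at least 89.2-fold higher while LPS alone lay much nearer to control. Prrg4, a membrane protein (5.76, 6.27, 10.65 and 7.27), Gprc5a, an orphan receptor (5.74, 5.76, 10.10 and 6.94), and the zinc finger gene Zbtb10 (4.97, 5.10, 9.07 and 5.85) were under the filter level in control and with LPS alone, and were at least 18.2-fold, 12.4-fold and 6.05-fold higher with LPS/zVAD.

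Other genes passed 2-fold in the pair although neither step did. The largest net differences of this kind were taken, so steps of similar size follow from the choice. Gab2, a signalling adaptor of cytokine receptors, had signals of 9.54, 10.48, 11.45 and 10.61, a 3.74-fold difference. Fgd6, an exchange factor for Cdc42, was taken by the same rule (7.23, 8.16, 9.12 and 8.23), as was Zbtb32, a zinc finger repressor (7.37, 8.30, 9.24 and 7.99). Plag1, a zinc finger activator under the filter level in control, had signals of 5.66, 6.65, 7.62 and 6.89 and was at least 2.22-fold higher. On the lower side Mmachc, an enzyme that processes vitamin B12, had 10.08, 9.11, 8.21 and 8.93, and Fam98a 9.92, 8.94, 8.04 and 8.81. With LPS/zVAD/Nec-1 each of these 6 genes lay closer to the LPS array than to the LPS/zVAD array. Insig1, given above, and Ublcp1, a phosphatase of the proteasome (6.06, 7.12, 4.86 and 6.03), were the 2 genes with LPS alone past 2-fold from control on one side and LPS/zVAD past 2-fold on the other, and both Ublcp1 signals of the pair lay under the filter level.

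**Figure D5:**
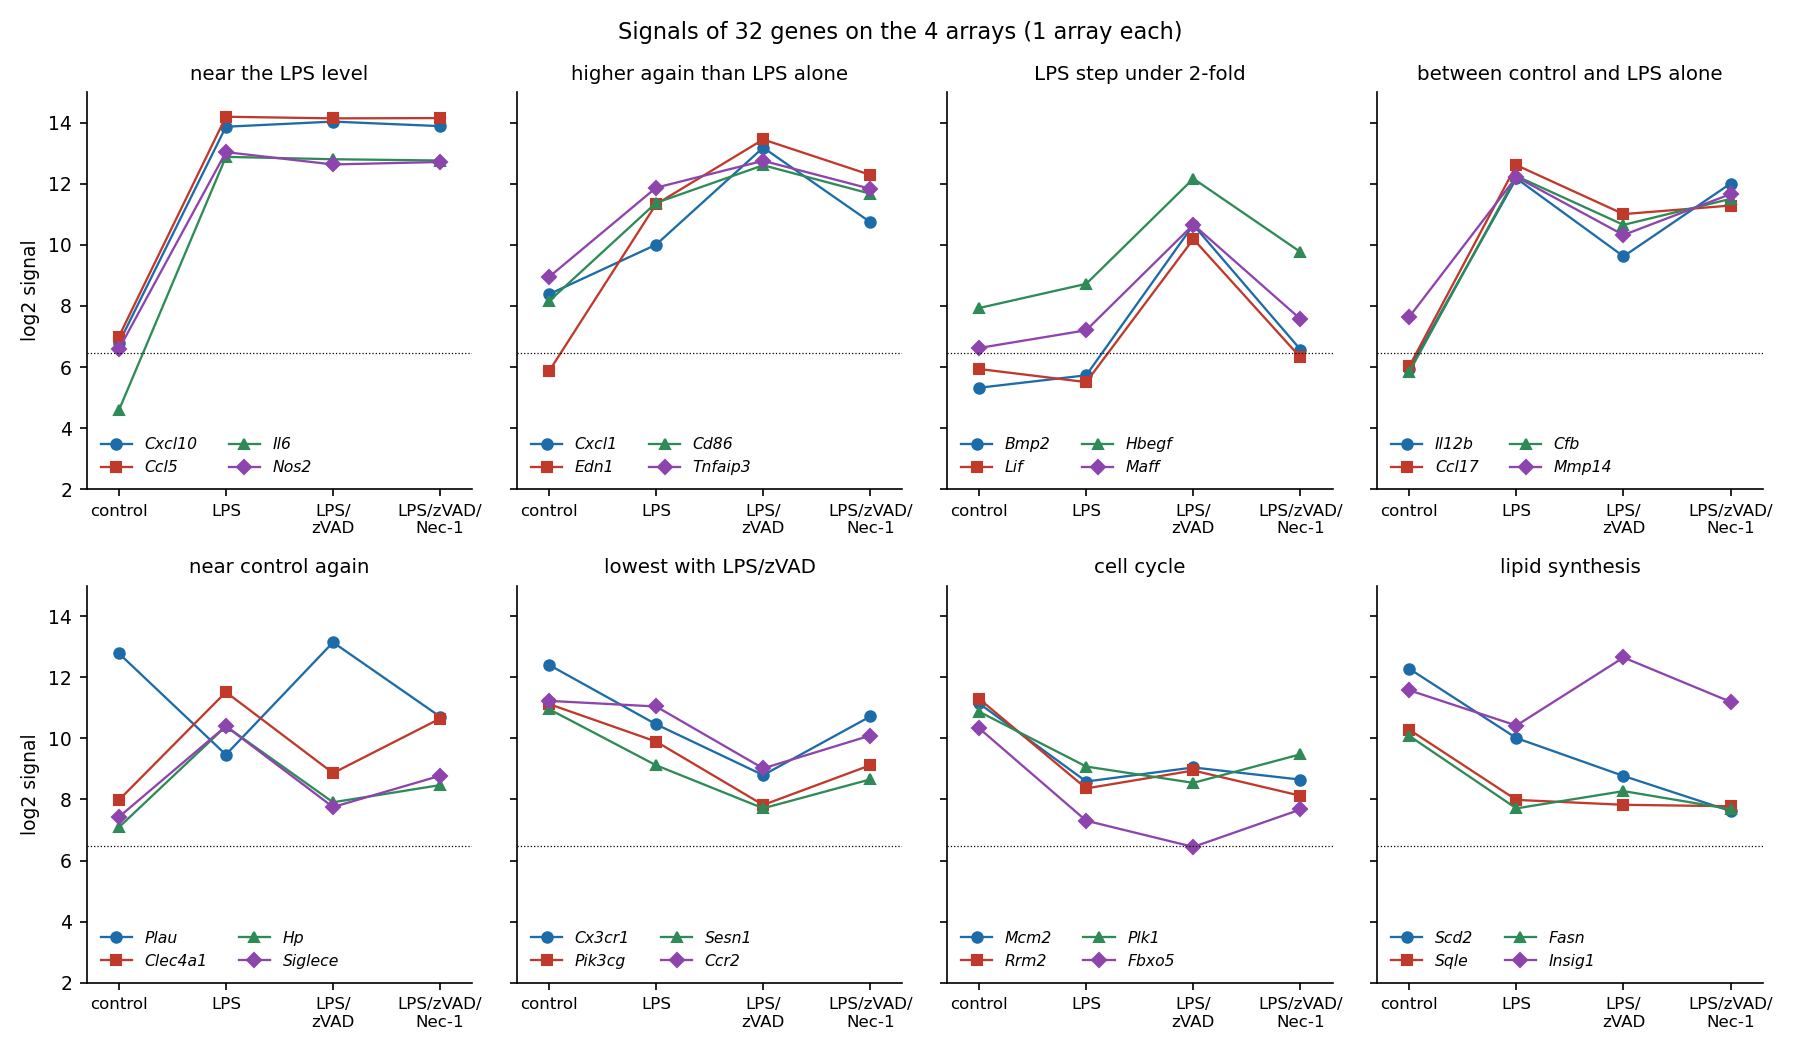
Log2 signals of 32 genes on the 4 arrays, in 8 panels of 4 genes by their course; the dotted line is the filter level of 6.47, and signals of different genes are not to be set against one another. Cxcl10, Ccl5, Il6 and Nos2 keep their LPS level with zVAD, and Bmp2, Lif, Hbegf and Maff are high with LPS/zVAD. Plau, Clec4a1, Hp and Siglece lie under 2-fold from control there as deposited, though Clec4a1 and Hp were past it after cyclic loess.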

How the data were processed

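RNA of 4 macrophage cultures (the same amount per array) was labelled and hybridised to Affymetrix mouse gene arrays. The deposited values are log2 signals per probe, which the authors made with a tool that the submitters' processing notes name as Affymetrix Expression Console. The sources used here give no version, background correction or normalization for it. Expression arrays record no read depth. The 4 arrays had medians between 6.41 and 6.52. Each sample was mapped to its group by its title, and the groups have 1 array each, so differences were described by size.

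Of 35556 probes, 21789 had 1 gene symbol in the platform annotation, 1621 had several and 12146 had none; the last groups entered no gene comparison. Symbols were checked against the RefSeq gene table, where 21698 probes matched and 0 symbols changed. The probes gave 19938 genes, 999 of them with several probes, each represented by the probe with the highest mean signal. The filter level was the median of all values (log2 6.47), and 7735 genes whose highest signal missed it were left out. Differences were computed with Python 3.11.15, pandas 2.3.3 and numpy 2.4.6, and cyclic loess and quantile scaling with R 4.3.3 and limma 3.58.1. The scripts were tested on simulated data with known differences.

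The comparison, the 51 gene lists (1101 members, 1013 measured, 46 genes in several lists) and the rule for named genes were chosen with earlier results of these data known. The rule took the 12 highest and 12 lowest differences with both signals past the filter level, the 8 largest each way counted from it, up to 5 members per list by size, a set of key genes, and up to 6 genes per course over the arrays, ranked by net difference, or by the LPS step where the net was under 2-fold. Predicted, clone, receptor-segment and small RNA symbols were left out of it. Single exceptions within a list, further examples such as Cd68, Tgfb1, Ccl3, Fos, Jun, Gsdmd, Hspa5, Pcna, Cdt1, Actb and Hmgcs1, and the genes nearest the threshold fall outside that rule; they were picked with their values in view. Alternatives covered scaling, choice of probe, filter and fold threshold. Promoters came from the RefSeq table of GRCm38.p6.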

Additional observations from a re-analysis of the deposited data

Results flagged for a closer look

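Signals outside the gene comparison also differed between the 2 arrays. Of the 865 probes with several gene symbols past the filter level, 65 were at least 2-fold higher with LPS/zVAD than in control (7.51%) and 49 at least 2-fold lower (5.66%). Of the 4978 probes past it with no symbol in the annotation, 265 were higher (5.32%) and 357 lower (7.17%). The largest difference was 6.32 among probes with several symbols and 5.87 among those with none. These probes could not be given to a single gene and entered no count above.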

How the results depend on the processing

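The counts past the threshold followed its size: 1753 genes were higher and 3009 lower at 1.5-fold, and 645 and 344 at 3-fold. Under the other scalings, filters and probe choices the counts ranged from 928 to 1287 higher and from 906 to 1311 lower. Of the 292 genes the naming rule took, 206 were past 2-fold as deposited and between 206 and 210 under the other scalings and the other probe choice, and the difference of Ublcp1 was 0.00 once low signals were counted from the filter level. Of 51 list medians, 12 were past 2-fold as deposited and between 11 and 13 otherwise. Lists whose median changed sign with the scaling had medians under 0.1 in size as deposited. Leaving out an array was not possible with 1 array per condition. No paired analysis was possible because each condition had 1 array and the labels carry no replicate numbers. Signals under the filter level give bounds and no fold.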

Other observations

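Of 21 Fc gamma receptor and complement genes (18 past the filter level), 3 were higher and 1 lower, beside 8.79% higher and 10.7% lower among all genes. The median of the list was -0.06. After cyclic loess 3 were higher and 0 lower, with a median of 0.00. Cfb, complement factor B of the alternative pathway, had 5.84, 12.25, 10.65 and 11.50 on the 4 arrays, in log2 units and the order used above, and was at least 18.1-fold higher with LPS/zVAD than in control. Fcgr4, an activating Fc gamma receptor, was 7.73-fold higher (8.83, 12.20, 11.78 and 12.28), and C1qa, a chain of the first complement component, was the member lower as deposited (11.08, 10.76, 9.99 and 10.63). Of 17 genes of alternative activation (12 past the filter level), 4 were higher and 1 lower, beside the same shares of all genes. Their median was 0.47. The largest difference was that of Socs2, also counted among the suppressors of cytokine signalling. The lower member was Stab1, given above. Chil3, a chitinase-like protein, was at least 2.13-fold higher (5.58, 7.09, 7.56 and 6.53) and the beta-glucan receptor gene Clec7a 2.50-fold (9.98, 10.94, 11.31 and 10.86).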
